A study of Mus musculus with 16 samples.

Results

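RNA of 10 genes that build, desaturate, and elongate fatty acids was followed in CD11b+ cells from the mouse brain. The 10 genes were chosen by name and are the lipogenic enzymes Acaca and Fasn, the desaturases Scd1, Scd2, Fads1, and Fads2, and the elongases Elovl1, Elovl5, Elovl6, and Elovl7. All 10 are among the 24421 rows of the count table, and all 10 are among the 14565 genes that passed the filter on low counts (more than 10 counts in at least 4 of 16 libraries).

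The libraries came from female C57BL/6J mice without any engineered allele, housed on their diets for 1 month from weaning. CON mice (4 libraries) ate standard chow, MAL mice (5 libraries) ate an isocaloric diet low in protein and fat, and MAL-BG mice (7 libraries) ate that same low diet and were gavaged with a mix of E. coli and Bacteroidales species. CON and MAL mice had PBS gavages according to the Methods. By treatment, MAL-BG and MAL thus differ by the bacteria, MAL and CON by the diet, and MAL-BG and CON by both. The authors' code includes a batch term, and the batch of each library is not known here. Differences between groups could therefore not be separated from batch. Cells were held on a column by magnetic beads against CD11b, an integrin chain found on microglia, macrophages, and granulocytes. The starting tissue is cortical tissue in the labels and the whole cerebrum in the Methods.

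De novo synthesis of fatty acids starts with acetyl-CoA carboxylase (Acaca), which makes malonyl-CoA, and fatty acid synthase (Fasn), which joins these units into palmitate. Elongases of the ELOVL family carry out the condensation step that lengthens an acyl-CoA: Elovl6 acts on saturated and monounsaturated chains such as palmitate, Elovl5 on polyunsaturated chains, and Elovl1 and Elovl7 on saturated and monounsaturated chains that are longer. Stearoyl-CoA desaturases (Scd1, Scd2) place the first double bond to make oleate and palmitoleate, and Fads2 and Fads1 act in turn on the essential fatty acids of the diet to make arachidonic acid, eicosapentaenoic acid, and docosahexaenoic acid. In the brain these products fill the phospholipids of membranes and myelin, and Scd2 is known as the main stearoyl-CoA desaturase there. The study also asked how polyunsaturated fatty acid metabolism was shaped in the MAL-BG brain. Of the genes followed here, Fads1, Fads2, and Elovl5 encode enzymes that act on polyunsaturated chains, and the others do not. The study measured these fatty acids in brain tissue and not in isolated cells.

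Scd1 and Scd2 are neighbors on mouse chromosome 19 (GRCm38, GENCODE M21). Scd2 lies at 44293674 to 44306864 on the plus strand and Scd1 at 44394455 to 44407879 on the minus strand, 87590 bases apart. Their coding sequences (1065 bases in Scd1 and 1074 in Scd2) are identical at 89.6% of aligned positions, against 66.4% for Fads1 and Fads2. A stretch of each coding sequence is shown because the comparison of Scd2 with Scd1 below depends on telling their reads apart. It covers coding bases 493 to 699 of Scd1 and 502 to 708 of Scd2, counted from the A of the start codon, and capitals mark the only 2 bases of 207 that differ, on either side of the longest shared run of 147 bases.
Scd1: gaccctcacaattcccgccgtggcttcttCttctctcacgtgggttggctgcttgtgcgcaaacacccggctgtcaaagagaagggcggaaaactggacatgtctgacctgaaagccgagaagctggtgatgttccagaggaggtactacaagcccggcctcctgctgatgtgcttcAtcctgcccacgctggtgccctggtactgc
Scd2: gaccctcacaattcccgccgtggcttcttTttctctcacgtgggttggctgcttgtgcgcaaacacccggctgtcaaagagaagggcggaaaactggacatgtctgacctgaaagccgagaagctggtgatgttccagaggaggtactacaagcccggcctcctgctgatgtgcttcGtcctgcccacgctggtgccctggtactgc
Reads of 42 bases taken from within such a run fit both genes. Over all exons of the genes, however, 5.91% of the 42-base windows of Scd1 and 5.04% of those of Scd2 also occur in another annotated gene. Scd3 and Scd4, the remaining members of the locus, reached at most 8 and 14 counts in any library, and neither passed the filter.

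Promoters of 7 of the 10 genes were found in the RefSeq table for GRCm38.p6 (250 bases before to 50 after the start site, which for some genes is not the start given by GENCODE), and those of Scd1, Scd2, and Fads1 were not analysed here. The promoters of Fads2 and Fasn, which fell in MAL-BG, and of Elovl1, which rose, are shown to compare the letters next to the start sites of genes that moved in opposite directions. RefSeq lists 2 start sites for Elovl1, and the upstream one is shown. Capitals mark matches on either strand to a sterol regulatory element, the site of SREBP factors (TCACNCCAC), to the NF-Y box CCAAT, to the Sp1 box GGGCGG, and to the E-box CACGTG.
Fads2 (chr19:10101454-10101753, minus strand): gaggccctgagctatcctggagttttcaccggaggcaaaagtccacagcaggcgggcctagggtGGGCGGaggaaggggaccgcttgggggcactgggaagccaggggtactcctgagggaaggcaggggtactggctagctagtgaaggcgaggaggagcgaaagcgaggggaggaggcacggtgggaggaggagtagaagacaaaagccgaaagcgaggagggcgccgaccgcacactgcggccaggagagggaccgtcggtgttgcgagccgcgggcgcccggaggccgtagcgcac
Fasn (chr11:120824498-120824797, minus strand): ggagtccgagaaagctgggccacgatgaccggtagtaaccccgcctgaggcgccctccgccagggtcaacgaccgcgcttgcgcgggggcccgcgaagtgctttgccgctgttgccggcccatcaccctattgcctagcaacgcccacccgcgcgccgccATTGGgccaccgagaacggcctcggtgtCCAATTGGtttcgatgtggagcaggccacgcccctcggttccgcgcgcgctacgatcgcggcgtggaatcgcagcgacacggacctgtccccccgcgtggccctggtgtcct
Elovl1 (chr4:118427843-118428142, plus strand): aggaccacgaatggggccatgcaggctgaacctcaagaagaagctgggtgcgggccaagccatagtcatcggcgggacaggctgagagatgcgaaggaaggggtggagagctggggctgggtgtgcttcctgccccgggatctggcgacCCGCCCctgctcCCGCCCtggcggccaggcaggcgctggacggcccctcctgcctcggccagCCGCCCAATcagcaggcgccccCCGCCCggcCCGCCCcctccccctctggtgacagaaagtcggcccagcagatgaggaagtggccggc
TCACNCCAC occurred in 1.24% of 32851 RefSeq promoters and in 0 of the promoters of these 7 genes. Fasn held 3 CCAAT matches (37.4% of all promoters hold at least 1), of which a pair on opposite strands overlaps. Elovl1 held 5 GGGCGG matches (35.7% of all promoters) and 1 CCAAT match that overlaps a GGGCGG match. Fads2 held 1 GGGCGG match and none of the others, Elovl7 held 3 GGGCGG matches, and Elovl6 and Acaca held none of the 4 motifs. CACGTG (7.15% of all promoters) occurred in Elovl5 alone among the 7, beside 2 CCAAT matches. These are matches of letters and were not tested for binding. The Fads2 window lies mostly inside the GENCODE gene, which begins at 10101746 on the minus strand. The Acaca window, from 84195188, lies inside the GENCODE gene, which begins at 84129672. For these genes the matches therefore do not describe the sequence before the GENCODE start.

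Library totals were 10312703 to 13461574 counts in CON, 10864121 to 12819982 in MAL, and 14191791 to 18705202 in MAL-BG. The 10 genes together took 0.057% to 0.109% of the counts of a CON library, 0.0515% to 0.108% in MAL, and 0.0503% to 0.0801% in MAL-BG. Markers of microglia were high in every library (summed CPM of 14 genes 18297 to 29893 in CON, 18858 to 32328 in MAL, and 39935 to 54721 in MAL-BG, where CPM is counts relative to the library size after TMM scaling). RNA of other cells was present as well. Choroid plexus markers, an epithelium that makes cerebrospinal fluid, summed to 14002 to 54348 CPM in CON, 6503 to 42724 in MAL, and 1783 to 16661 in MAL-BG. Astrocyte markers summed to 325 to 724, 397 to 667, and 186 to 362 CPM, and neuron markers to 62.3 to 295, 89.9 to 247, and 24.5 to 87.4 CPM. CON replicate 1 and MAL replicate 4 were low for choroid plexus and astrocyte markers within their groups, and MAL-BG replicate 3 was the highest MAL-BG library for both. In these bulk libraries, fewer cells of a type and less RNA per cell cannot be told apart.

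Scd2 and Fads1 were the most abundant of the 10 per length of exon. In CON, levels per kilobase of exon were 57.4 ± 14.9 CPM for Scd2, 39.8 ± 8.28 for Fads1, 21.6 ± 9.19 for Elovl7, 18.1 ± 2.63 for Elovl1, 15.6 ± 3.48 for Elovl5, 10.5 ± 4.23 for Scd1, 7.82 ± 2.20 for Fads2, 5.29 ± 1.04 for Fasn, 2.13 ± 0.853 for Elovl6, and 0.698 ± 0.0877 for Acaca (mean ± SD, n = 4). Of the 9 pairs of neighbors in this order 7 overlapped in range, and the exceptions were Elovl6 below Fasn and Acaca below Elovl6. In MAL-BG the order was Scd2 (44.4 ± 9.54 CPM per kilobase), Fads1 (31.7 ± 2.63), Elovl1 (30.9 ± 5.33), Elovl5 (20.5 ± 2.93), Elovl7 (7.03 ± 3.72), Scd1 (3.84 ± 2.39), Fasn (2.61 ± 0.647), Fads2 (0.979 ± 0.486), Elovl6 (0.909 ± 0.365), and Acaca (0.582 ± 0.0869, n = 7). Elovl1 stood next to Fads1 with overlapping ranges, and Fads2 stood next to Elovl6, also with overlapping ranges. Fads1 was the steadiest of the genes among MAL-BG mice (coefficient of variation 8.29%), and Scd1 the most variable (62.3%).

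Groups were compared in a single fit of edgeR's quasi-likelihood test to all 14565 genes, with Benjamini-Hochberg adjustment in each comparison. A gene was called when its adjusted p was under 0.05 and its log2 fold change was beyond 0.58 in either direction, about 1.5-fold. Both MAL-BG comparisons use the same 7 MAL-BG libraries, so they are not independent of each other. In MAL-BG compared to CON, 1 of the 10 genes was higher (Elovl1) and 5 were lower (Scd1, Fads2, Elovl6, Elovl7, Fasn), where 11.4% of all tested genes were called higher and 21.7% lower. Compared to MAL, these 6 genes were called in the same directions, where 10.2% of all genes were called higher and 20.2% lower. The median log2 fold change of the 10 genes was -0.70 against CON and -0.60 against MAL, beside -0.04 and -0.03 over all tested genes. Only Elovl1 lay with every MAL-BG library above all CON and all MAL libraries (9.83% and 7.86% of all genes). Fads2 lay below all of both groups and Fasn below all of CON (11.1% of all genes against CON and 8.95% against MAL).

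**Figure D1:**
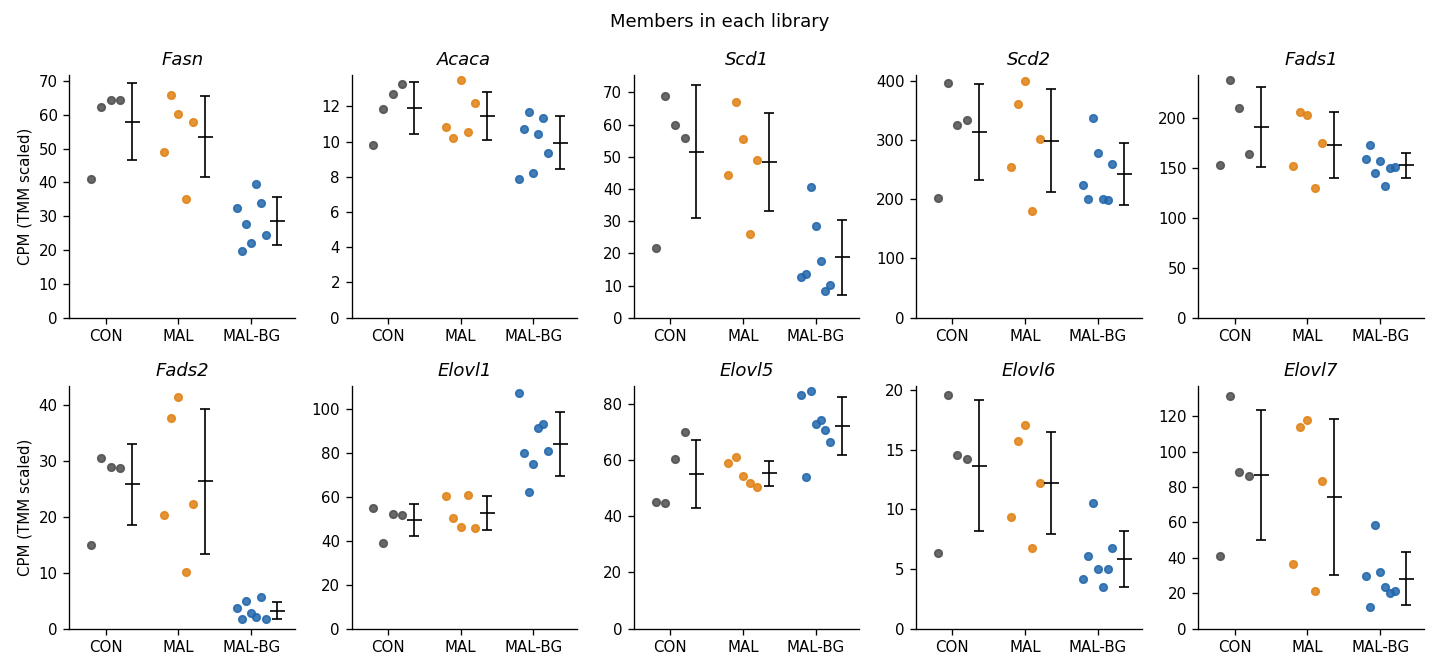
CPM (TMM scaled, linear axis from 0) of the 10 genes in each library of CON (grey, n = 4), MAL (orange, n = 5), and MAL-BG (blue, n = 7). Each point is a library, and the bar beside each group is mean ± SD. Fads2 in MAL-BG lies below every other library, and Elovl1 in MAL-BG lies above every other library.

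**Figure D2:**
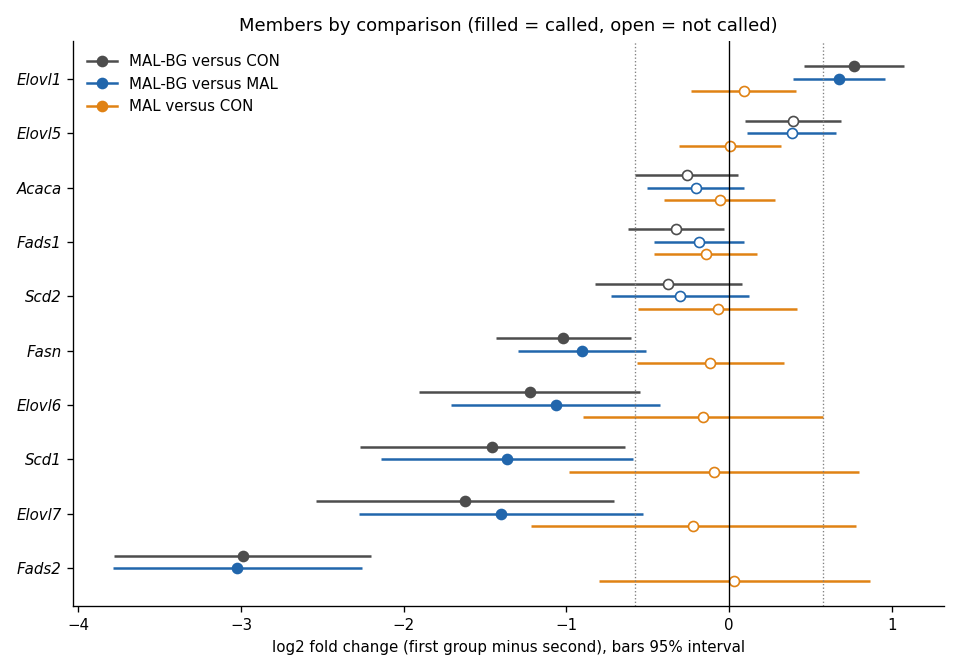
Log2 fold change of the 10 genes in MAL-BG versus CON (grey), MAL-BG versus MAL (blue), and MAL versus CON (orange), ordered by the change against CON. Bars are 95% intervals calculated from the log2 fold change and F statistic of the edgeR test. Filled points were called, open points were not, and dotted lines mark 0.58 in either direction. Elovl1 alone is called higher, and 5 genes are called lower in both MAL-BG comparisons.

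Among the enzymes of palmitate synthesis, Fasn fell in MAL-BG while Acaca was not called. Fasn (chromosome 11, 120805846 to 120824547, minus strand) was at 41.0, 62.2, 64.4, and 64.2 CPM in CON, at 48.9, 65.9, 60.2, 35.0, and 57.7 CPM in MAL, and between 19.8 and 39.6 CPM in MAL-BG with a median of 27.8. Every MAL-BG library was below every CON library, and 6 of 7 were below every MAL library, with MAL replicate 4 the exception on the MAL side. The log2 fold change of Fasn was -1.02 ± 0.196 (standard error) against CON, a 2.03-fold lower level (adjusted p = 6.89e-04), and -0.90 ± 0.186 against MAL (adjusted p = 0.00114). With offsets for exon length and GC content combined with scaling by mean log2 CPM, the Fasn change was -0.21 against CON (adjusted p = 0.371) and -0.17 against MAL (adjusted p = 0.436), and the calls were lost. With the offsets alone, added after seeing the data, they were lost too (-0.48, adjusted p = 0.0672, and -0.41, adjusted p = 0.0965). The longest Fasn transcript has a GC content of 57.9%, the highest of the 10 genes.

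Acaca (chromosome 11, 84129672 to 84401651) was the least abundant of the 10 per length. Its levels were 9.83, 11.9, 12.7, and 13.2 CPM in CON, 10.8, 10.2, 13.5, 10.6, and 12.2 CPM in MAL, and 7.90 to 11.6 CPM in MAL-BG (median 10.4). These ranges overlapped between all groups. The log2 fold change was -0.26 against CON (95% interval -0.58 to 0.06, adjusted p = 0.168) and -0.20 against MAL (-0.50 to 0.09, adjusted p = 0.249). With the same offsets and scaling it was 0.43 (adjusted p = 0.0139) and 0.46 (adjusted p = 0.00627), the opposite sign. Of the 42-base windows of Acaca 31.6% also occur elsewhere, chiefly in its processed pseudogene Gm5182, so its counts are uncertain where reads could be split.

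Stearoyl-CoA desaturation was represented by an abundant and a less abundant gene, which changed to different extents. Scd1 was at 21.6, 68.8, 59.9, and 55.9 CPM in CON, at 44.4, 67.1, 55.5, 25.9, and 49.0 CPM in MAL, and between 8.38 and 40.7 CPM in MAL-BG (median 13.5). The lowest CON and MAL libraries, CON replicate 1 and MAL replicate 4, lay within the MAL-BG range, and 5 of 7 MAL-BG libraries were below all others. Scd1 was lower in MAL-BG by 1.45 ± 0.387 on the log2 scale against CON, which is 2.74-fold (adjusted p = 0.00620), and 2.57-fold lower than in MAL (log2 fold change -1.36 ± 0.368, adjusted p = 0.00695).

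Scd2 was at 201, 395, 325, and 334 CPM in CON, at 254, 360, 399, 180, and 302 CPM in MAL, and between 199 and 337 CPM in MAL-BG (median 224). Groups overlapped broadly. Scd2 was not called, with a log2 fold change of -0.37 against CON (95% interval -0.82 to 0.08, adjusted p = 0.166) and -0.30 against MAL (-0.73 to 0.12, adjusted p = 0.230). Without the 3 libraries that stand apart by their choroid plexus and astrocyte markers within their groups (CON replicate 1, MAL replicate 4, and MAL-BG replicate 3), a choice made after seeing the data that widens the gap between groups in these markers, the Scd2 change was -0.65 and it was called against CON, but not against MAL (-0.54).

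Relative to Scd1, Scd2 was higher in MAL-BG. The ratio of Scd2 to Scd1 CPM within a library was 9.33, 5.74, 5.42, and 5.98 in CON, 5.72, 5.37, 7.19, 6.92, and 6.17 in MAL, and 8.30 to 25.3 in MAL-BG. Every MAL-BG library had a higher ratio than every MAL library, and CON replicate 1 alone reached into the MAL-BG range. The log2 ratio differed by 1.18 between MAL-BG and CON (two-sided exact permutation test, p = 0.0121, 0.0189 adjusted over 9 ratio tests) and by 1.23 between MAL-BG and MAL (exact permutation test, p = 0.00379, adjusted 0.0114). Leaving out CON replicate 2, 3, or 4 moved the adjusted p against CON to 0.05. A ratio within a library does not depend on the scaling between libraries.

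**Figure D3:**
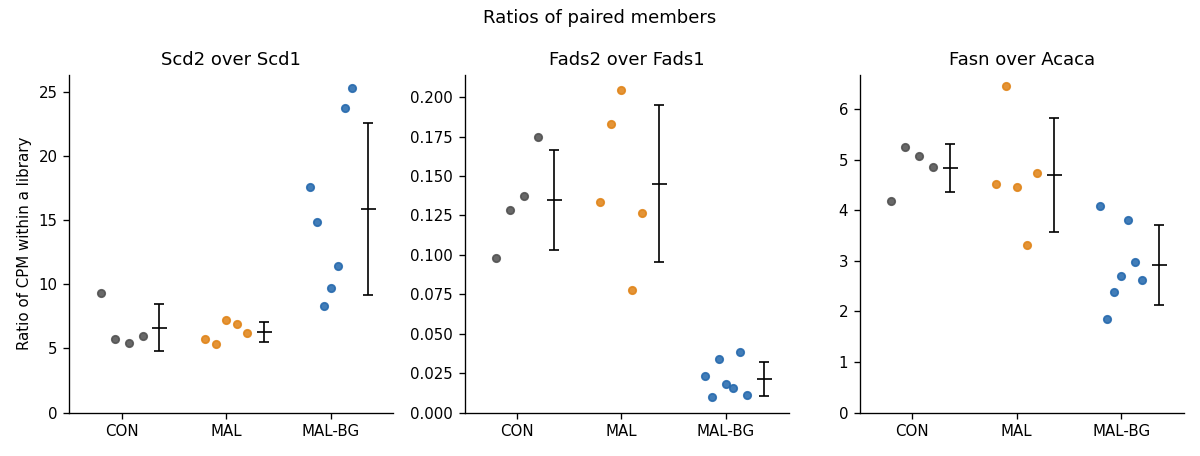
Ratio of CPM of Scd2 to Scd1, Fads2 to Fads1, and Fasn to Acaca within each library (linear axes from 0), for CON (grey, n = 4), MAL (orange, n = 5), and MAL-BG (blue, n = 7). Points are libraries, and bars are mean ± SD. The MAL-BG libraries reach 25.3 for Scd2 to Scd1, and all lie below the CON and MAL libraries for Fads2 to Fads1.

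Fads2, which takes the first desaturation step from linoleic and alpha-linolenic acid, showed the largest difference of the 10 genes. It lies on chromosome 19 at 10062765 to 10101746 (minus strand). Fads2 was at 15.0, 30.5, 28.8, and 28.8 CPM in CON, at 20.3, 37.7, 41.5, 10.2, and 22.2 CPM in MAL, and between 1.69 and 5.71 CPM in MAL-BG with a median of 2.80. All 7 MAL-BG libraries were below all 9 libraries of the other groups, and MAL-BG libraries held 22 to 96 Fads2 counts each. Levels were 7.94-fold lower than in CON (log2 fold change -2.99 ± 0.375, adjusted p = 2.96e-05) and 8.12-fold lower than in MAL (-3.02 ± 0.363, adjusted p = 2.36e-05). The change stayed between -3.35 and -2.72 in every alternative fit.

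Fads1, which acts after Fads2 on the elongated chain, lies next to it at 10182888 to 10196877 on the plus strand, with the start sites 81142 bases apart. It was at 153, 238, 210, and 164 CPM in CON, at 152, 206, 203, 130, and 176 CPM in MAL, and between 133 and 173 CPM in MAL-BG (median 151). MAL-BG libraries overlapped both other groups. Fads1 was not called (log2 fold change -0.33, 95% interval -0.62 to -0.03, adjusted p = 0.0666 against CON, and -0.18, -0.46 to 0.09, adjusted p = 0.268 against MAL). The ratio of Fads2 to Fads1 was 0.0980 to 0.175 in CON, 0.0780 to 0.204 in MAL, and 0.00972 to 0.0381 in MAL-BG, with no overlap. Its log2 value was lower by 2.79 than in CON (exact permutation test, p = 0.00303) and by 2.85 than in MAL (exact permutation test, p = 0.00126), in both cases the smallest p this number of libraries allows (adjusted 0.0114).

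The elongases divided into 2 that were higher and 2 that were lower in MAL-BG, of which 3 were called. Elovl1 (chromosome 4, 118428093 to 118432953), which extends saturated and monounsaturated acyl chains to very long ones used in sphingolipids, was at 54.8, 38.9, 52.3, and 51.9 CPM in CON, at 60.5, 50.3, 46.1, 61.0, and 45.6 CPM in MAL, and between 62.2 and 107 CPM in MAL-BG (median 80.8). All 7 MAL-BG libraries were above all other libraries. Elovl1 rose 1.70-fold against CON (log2 fold change 0.77 ± 0.147, adjusted p = 6.46e-04) and 1.60-fold against MAL (0.68 ± 0.135, adjusted p = 9.39e-04). Among the 14 microglia markers the median change was 0.81 against CON and 0.82 against MAL, and 10 of 14 were called higher in each comparison (Tmem119 by 1.08 and 1.01, whereas P2ry12, at 0.38 and 0.30, was not called), and the part of this in the Elovl1 change was not tested. With offsets for length and GC content alone, added after seeing the data, the change against MAL was 0.49, under the fold threshold. Exons of Elovl1 overlap those of Cdc20 on the opposite strand, and how strand was set in counting is not given in the sources used here. Cdc20 reached 359 counts in 1 MAL-BG library and 52 to 80 in the others, beside 903 to 1820 counts of Elovl1.

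Elovl5 (chromosome 9, 77917364 to 77984519), which elongates polyunsaturated chains between the steps of Fads2 and Fads1, was at 45.1, 44.7, 60.4, and 69.8 CPM in CON, at 58.9, 60.9, 54.1, 51.7, and 50.4 CPM in MAL, and between 53.9 and 84.4 CPM in MAL-BG (median 72.6). Of the 7 MAL-BG libraries 5 were above all of CON and 6 above all of MAL, so both groups overlapped with MAL-BG. The adjusted p was 0.0309 against CON and 0.0234 against MAL, but at 0.39 in both comparisons the log2 fold change was below the fold threshold, and Elovl5 was not called. By adjusted p alone, 19.8% of all genes were higher against CON and 20.2% against MAL.

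Elovl6 (chromosome 3, 129532355 to 129638495), the elongase of palmitate, was at 6.30, 19.6, 14.6, and 14.2 CPM in CON, at 9.36, 15.7, 17.0, 6.77, and 12.2 CPM in MAL, and between 3.47 and 10.5 CPM in MAL-BG (median 4.99). CON replicate 1, MAL replicate 1, and MAL replicate 4 lay within the MAL-BG range, and the other CON and MAL libraries lay above it. Elovl6 was 2.34-fold lower than in CON (log2 fold change -1.23 ± 0.322, adjusted p = 0.00569) and 2.09-fold lower than in MAL (-1.07 ± 0.306, adjusted p = 0.00995).

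Elovl7 (chromosome 13, 108214404 to 108285683) was at 41.2, 131, 88.3, and 86.4 CPM in CON, at 36.3, 114, 118, 21.3, and 83.3 CPM in MAL, and between 12.2 and 58.7 CPM in MAL-BG (median 23.3). CON replicate 1, MAL replicate 1, and MAL replicate 4 lay within the MAL-BG range, and MAL-BG replicate 3 was the highest of its group. Elovl7 was 3.08-fold lower than in CON (log2 fold change -1.62 ± 0.435, adjusted p = 0.00645) and 2.64-fold lower than in MAL (-1.40 ± 0.414, adjusted p = 0.0117).

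Low levels of Elovl7, Scd2, Scd1, and Elovl6 were found in libraries that were also low for markers of other cell types. After group means were subtracted, Elovl7 followed the summed choroid plexus markers over the 16 libraries (Pearson's r = 0.977, Spearman's rho = 0.979, and r = 0.964 without the 2 libraries farthest from the median of the markers). This was seen within the 7 MAL-BG libraries (r = 0.969) and within the 9 CON and MAL libraries (r = 0.996). Scd2 also followed the choroid plexus markers (r = 0.913 over 16 libraries), and Scd1 the astrocyte markers (r = 0.854). Endothelium markers had like values with Scd1 (r = 0.852) and Scd2 (r = 0.827), although they were higher in MAL-BG (4 of 12 called higher against CON and 6 of 12 against MAL, 0 lower, and sums of 867 to 2910 CPM in CON, 765 to 2168 in MAL, and 1768 to 5022 in MAL-BG). Scd1 also followed oligodendrocyte precursor (r = 0.84) and neuron markers (r = 0.82), so its pairing is not specific to a single list. Elovl6 followed ependyma (r = 0.83), astrocyte (0.79), and neuron markers (0.78), and was not specific to a single list either. Elovl1 followed the microglia markers more loosely (r = 0.578), and the border macrophage markers to a like extent (r = 0.569). The microglia markers ran opposite to Scd1 (r = -0.70), Scd2 (-0.75), Elovl7 (-0.75), Elovl6 (-0.69), Fasn (-0.66), and Fads2 (-0.65). For Fasn, r with the choroid plexus markers was 0.923 within CON and MAL but 0.122 within MAL-BG, and for Fads2 the values were 0.929 and 0.544. Early response genes, which are induced within minutes by stimuli that include tissue dissociation, ran opposite to Fasn (r = -0.752), Fads2 (-0.757), and Elovl7 (-0.812). They also ran opposite to Scd2 (-0.70), Scd1 (-0.63), Elovl6 (-0.62), and Elovl5 (-0.58), and more loosely to Acaca (-0.39) and Fads1 (-0.35). Elovl1 alone had a positive value with the early response genes (0.42). Their sums were 23927 to 47850 CPM in CON, 25317 to 53903 in MAL, and 13316 to 36960 in MAL-BG, with 7 of 14 called lower against CON and 10 of 14 lower and 1 higher against MAL. These correlations are descriptions across libraries that share their depth and cell composition, and carry no test. Choroid plexus markers fell in MAL-BG for 12 of 12 genes against CON and 11 of 12 against MAL (median log2 fold change -2.41 and -2.06), astrocyte markers for 6 and 7 of 12 (-1.07 and -1.16), neuron markers for 11 of 12 in both (-2.44 and -2.19), and ependyma markers for 9 and 7 of 10 (-1.56 and -1.24). No marker of these 4 lists was at 0 in all libraries of a group, with Ttr of the choroid plexus at 23106 ± 11871 CPM in CON and 4746 ± 3670 in MAL-BG, and Aldh1l1 of astrocytes at 25.0 ± 10.4 and 5.09 ± 3.04 CPM. The part of these cells and of the early response in the lower levels of Fads2, Scd1, Elovl6, Elovl7, and Fasn was not tested.

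**Figure D4:**
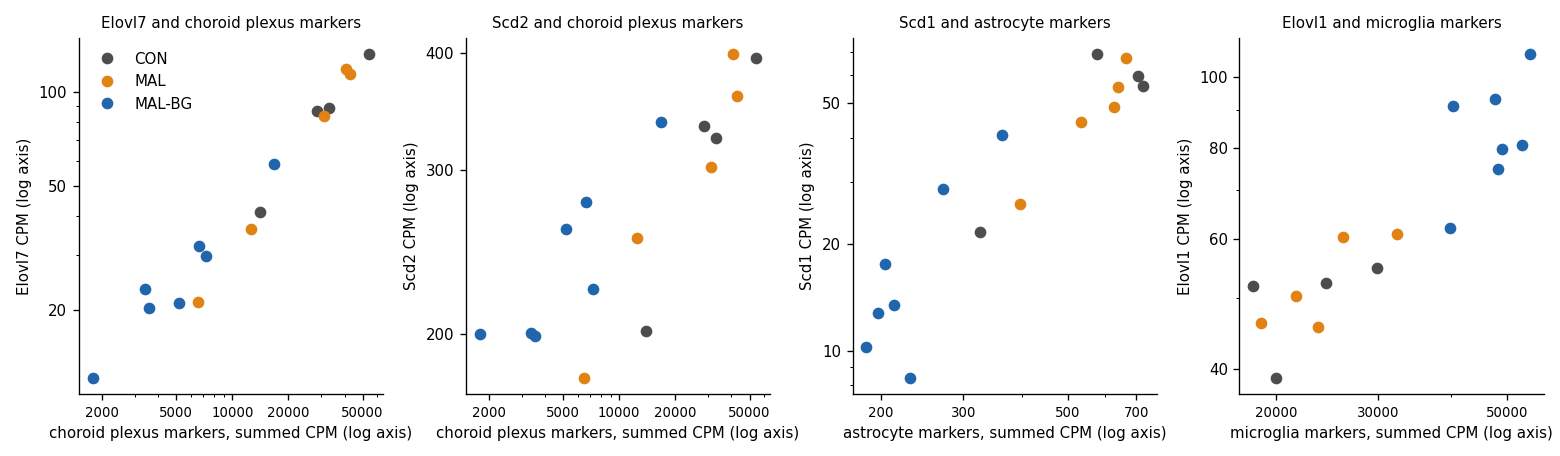
CPM of Elovl7, Scd2, Scd1, and Elovl1 (vertical log axes) against the summed CPM of choroid plexus, choroid plexus, astrocyte, and microglia markers (horizontal log axes) in each of 16 libraries of CON (grey), MAL (orange), and MAL-BG (blue). Elovl7 lies along a narrow band from 12.2 CPM at 1783 CPM of choroid plexus markers to 131 CPM at 54348, across all groups.

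The low diet alone was followed by no call. None of the 10 genes was called in MAL compared to CON (0 by the edgeR fit and 0 by DESeq2), and 0 had an unadjusted p under 0.05 in the edgeR fit, where the smallest was 0.355. Of all 14565 genes 0% were called. Log2 fold changes of the 10 genes were between -0.22 (Elovl7) and 0.09 (Elovl1), and every range of MAL overlapped that of CON, where 0.412% of all genes lay with MAL fully above CON and 0.302% fully below. For Fads2 the interval was -0.80 to 0.86 and for Elovl7 -1.22 to 0.78, so changes within those ranges were not excluded. The smallest change that groups of this size could detect was not computed. Narrower intervals were obtained for Elovl5 (-0.31 to 0.32), Fads1 (-0.46 to 0.17), and Acaca (-0.40 to 0.29).

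Other genes of the same pathway were compared from 5 lists with 63 genes, of which 60 were tested. Against CON, 12 were called higher and 12 lower, and against MAL 10 higher and 14 lower, beside the 11.4% and 21.7% of all genes against CON and the 10.2% and 20.2% against MAL given above. The median log2 fold changes of the 60 genes were 0.05 and 0.04. In both comparisons 22 of the 60 were called, 10 higher and 12 lower. The share of all genes called in both comparisons was not counted, so whether 22 is unusual was not tested. Of the 22, the 20 with the largest changes are described here with their log2 fold change against CON and then against MAL. Their largest adjusted p were 0.0276 against CON and 0.0445 against MAL, both for Ppara. MAL-BG libraries lay fully apart from both other groups for Acsl6, Mcat, Insig1, Thrsp, Lpcat3, Acsl5, and Mlycd. For Fads3, Acss2, and Fabp5 they lay apart from CON only, and for the rest they overlapped with both. The lowest mean levels in MAL-BG were those of Ppara (1.44 ± 1.25 CPM), Mboat2 (2.22 ± 1.66), Elovl4 (2.48 ± 2.13), and Fabp7 (3.32 ± 2.65).

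Among other desaturases and their electron carriers (8 tested), Fads3, a relative of Fads1 and Fads2, fell (-1.09 and -0.94), and Degs2, a sphingolipid desaturase and hydroxylase, rose (1.16 and 1.13). Cytochrome b5 reductase Cyb5r3, which passes electrons to desaturases, was not called (-0.11 and 0.10). Among elongation enzymes (8 tested), Elovl4, the elongase of very long polyunsaturated chains, fell (-2.10 and -1.69), while the dehydratase Hacd4 rose (0.83 and 0.68). The reductases of the elongation cycle Hsd17b12 (-0.10 and 0.05) and Tecr (-0.13 and 0.09) were not called.

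In the supply of carbon and NADPH (10 tested), Acacb, the mitochondrial acetyl-CoA carboxylase (-1.32 and -1.07), Acss2, which makes acetyl-CoA from acetate (-1.15 and -0.94), and malic enzyme Me1 (-1.98 and -1.59) fell. Rises were found for malonyl-CoA decarboxylase Mlycd (0.64 and 0.65) and for Mcat of mitochondrial fatty acid synthesis (1.05 and 1.05), both with all MAL-BG libraries above all others. ATP citrate lyase Acly, which feeds cytosolic acetyl-CoA to Acaca, was not called (0.04 and 0.02).

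Of the regulators of lipogenic transcription (17 tested) 5 were called in each comparison. Srebf1, which encodes the SREBP factor of fatty acid synthesis, was at 90.2 CPM in CON and 94.3 in MAL-BG (log2 fold change 0.06 and 0.19, not called), and Srebf2, its counterpart for cholesterol, was at -0.45 (adjusted p = 0.00720) and -0.50 (adjusted p = 0.00243), under the fold threshold. Insig1, a brake on SREBP processing that is itself a SREBP target, fell (-1.16 and -0.84), with all MAL-BG libraries below all others. Thrsp, a lipogenic protein that acts with Mid1ip1 on acetyl-CoA carboxylase, rose (0.91 and 0.87), and Ppara, a nuclear receptor for fatty acids, fell (-1.54 and -1.32). Mlxipl, which encodes the carbohydrate-responsive factor ChREBP, was not called (0.09 and -0.02).

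Among acyl-CoA synthetases and enzymes of acyl transfer (17 tested), 3 rose and 5 fell in both comparisons. Acsl6, the synthetase that activates docosahexaenoic acid in neurons and astrocytes, fell most (33.7 ± 14.6 CPM in CON and 34.0 ± 18.0 CPM in MAL, but 4.67 ± 2.10 CPM in MAL-BG, -2.84 and -2.86), and as with Fads2 its MAL-BG libraries lay below all others. The acyl-CoA and fatty acid carriers Dbi (-0.96 and -0.68), Fabp5 (-1.21 and -0.98), and Fabp7 (-1.98 and -1.26), the last of them an astrocyte and progenitor protein, and the acyltransferase Mboat2 (-2.00 and -1.77) also fell. Higher in MAL-BG were Lpcat3, which places polyunsaturated chains in phospholipids (0.78 and 0.80), Lpcat2, an acyltransferase of platelet-activating factor synthesis (0.93 and 0.84), and the synthetase Acsl5 (0.78 and 0.68). Lpcat2 was abundant in these cells (554 ± 136 CPM in CON and 1055 ± 233 in MAL-BG). The synthetases Acsl1 (-0.15 and -0.15) and Acsl3 (0.00 and -0.04) were not called.

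**Figure D5:**
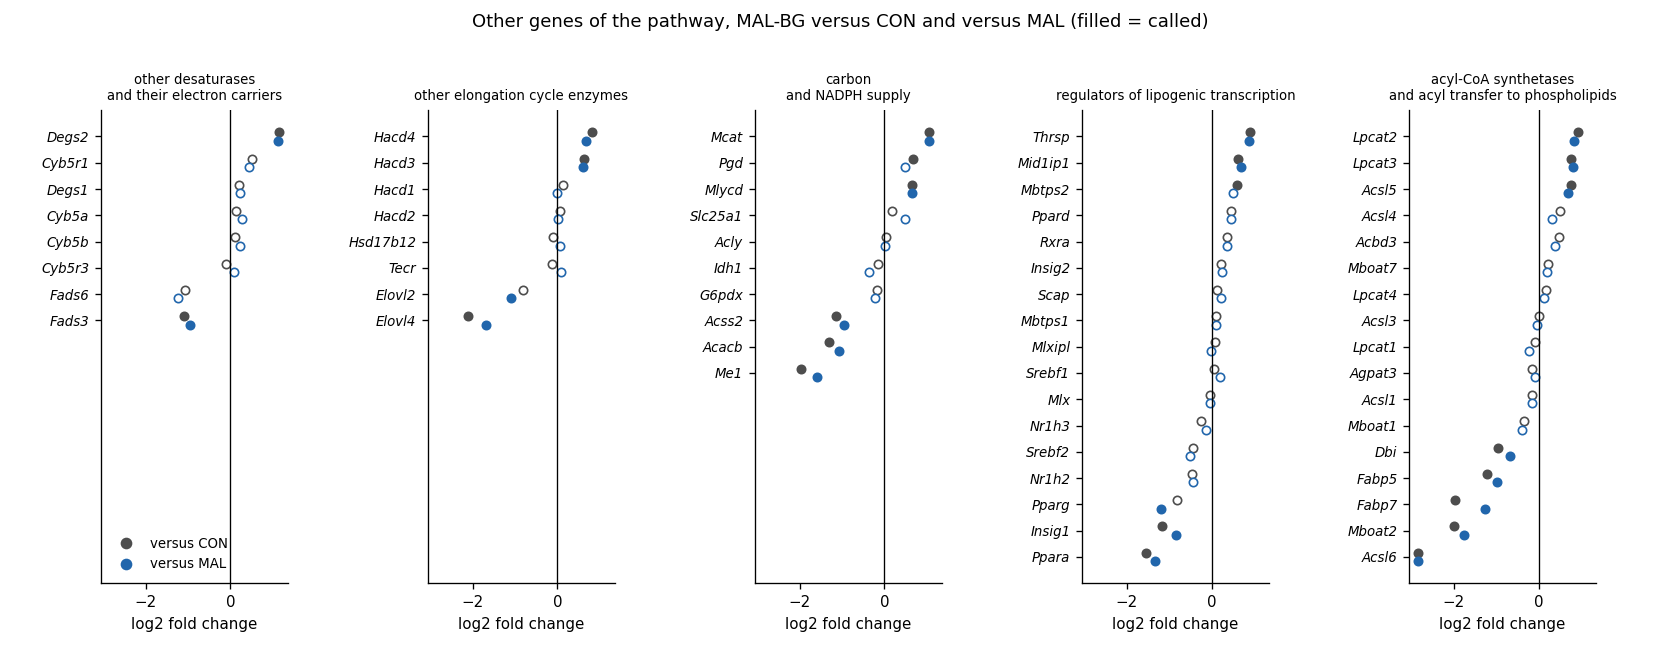
Log2 fold change of the 60 tested genes of 5 pathway lists in MAL-BG versus CON (grey) and versus MAL (blue), 1 row per gene, ordered by the change against CON. Filled points were called. Acsl6 has the lowest values (-2.84 and -2.86), and called genes lie on both sides of 0 in each list.

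The genes that varied most like each of the 10 within groups were sought among 11285 genes, by Pearson correlation of log2 CPM after subtraction of group means over 16 libraries. Elovl7 was most like Stk39 (r = 0.986), Tmem98 (0.986), and Hspb8 (0.983), Scd2 like Sqle (0.979), a cholesterol synthesis enzyme, Dcaf12l1 (0.974), and Fsd1l (0.973), and Scd1 like Trp53inp2 (0.972), Mtss1l (0.957), and N4bp3 (0.948). Elovl6 was most like Zfp651 (0.960), Aldh1l1 (0.947), an astrocyte marker, and Faxc (0.946), Fasn like Got2 (0.950), Zfyve9 (0.947), and Mrpl49 (0.941), and Fads2 like Ptgfrn (0.945), Atp2a2 (0.943), and Lrp8 (0.920). For Fads1 they were Smpd1 (0.917), 1110051M20Rik (0.913), and Tspan33 (0.901), for Elovl1 Ctsh (0.914), a lysosomal protease, Cd209a (0.903), and Selo (0.899), for Elovl5 Lrrc8c (0.867), Cyth3 (0.823), and Ptpn13 (0.811), and for Acaca Clasp1 (0.803), Lima1 (0.778), and Fryl (0.778). With so many genes compared over few libraries that share depth and composition, these values are a description only. They concern variation within groups: over the 16 libraries without subtraction of group means, r was -0.33 for Elovl1 with Cd209a, -0.07 for Elovl5 with Lrrc8c, -0.34 for Elovl5 with Ptpn13, and 0.08 for Fads2 with Ptgfrn.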

How the data were processed

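The RNA-Seq data cover CD11b+ brain cells of 16 mice (CON 4, MAL 5, MAL-BG 7), each with its own library. The authors prepared stranded poly(A) libraries, aligned reads to GRCm38 with STAR, and deposited raw read counts per gene made with HTSeq, without normalization. The annotation and strand option used for counting are not given in the sources used here. Groups were read from the column names, whose running numbers match no sample title. Replicate numbers here are those running numbers. The authors' code fitted batch beside condition. Nothing in the sources used here says which libraries share a batch, so no batch term was fitted.

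In R 4.3.3, counts were scaled with TMM, and 14565 genes were fitted with edgeR 4.0.16 (quasi-likelihood, Benjamini-Hochberg adjustment). CPM are counts over scaled library sizes, and log2 CPM used a prior count of 2. Ratios were compared by two-sided exact permutation tests. Alternatives were other scalings and filters, DESeq2 1.42.0, offsets for length and GC content, thinned libraries, 3 libraries left out together, and each library left out. The steps were tested on simulated data. Coordinates and exon lengths are from GENCODE M21, and promoters from RefSeq.

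The 10 genes, the pathway and marker lists, and the rules were chosen with earlier results of these data known. Named pathway genes were at most 20 called in both MAL-BG comparisons, by the smaller change. The SD are spreads across libraries, each from its own mouse. They do not separate differences among mice from counting noise, cell composition, or batch. The standard errors come from the edgeR fit to all tested genes and are not a spread among mice.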

Additional observations from a re-analysis of the deposited data

Results flagged for a closer look

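Among 39 sets of group values examined (10 genes and 3 ratios in 3 groups), 3 held a library far from the others of its group by Dixon's criterion, which chance alone meets in about 1 of 20. Genes were judged on CPM and ratios on the log2 scale, where the Scd2 to Scd1 ratio of CON replicate 1 was not flagged. As a plain ratio it was 9.33, with the nearest CON library at 5.98. Fads2 in CON replicate 1 was at 15.0 CPM, with the nearest CON library at 28.8 CPM, and the gap was 0.887 of the range of the group. Fasn in the same library was at 41.0 CPM, with the nearest at 62.2 CPM and a gap of 0.908 of the range. Elovl7 in MAL-BG replicate 3 was at 58.7 CPM, with the nearest MAL-BG library at 32.1 CPM and a gap of 0.572 of the range. CON replicate 1 had the lowest summed choroid plexus (14002 CPM) and astrocyte markers (325 CPM) of CON, and MAL-BG replicate 3 the highest of MAL-BG (16661 and 362 CPM), and their part in these values was not tested. Without CON replicate 1, the changes against CON were -3.19 for Fads2 and -1.17 for Fasn, and without MAL-BG replicate 3 the change of Elovl7 was -1.91 against CON and -1.69 against MAL.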

How the results depend on the processing

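In each of the 16 fits that left out 1 library, 1 of the 10 genes was called higher and 5 lower in both MAL-BG comparisons, and in the 320 values of single genes the direction and the call were as reported. With another scaling factor (DESeq2 size factors, upper quartile), another filter, DESeq2, thinned libraries, or only the groups compared, these counts were 1 and 5 as well. The adjusted p of some uncalled genes did cross 0.05 in the edgeR fits that left out 1 library. For Elovl5 it ran from 0.00539 to 0.145 against CON and from 0.00448 to 0.0710 against MAL. Against CON it ran from 0.0186 to 0.251 for Fads1 and from 0.0364 to 0.399 for Scd2. Without a fold threshold, 2 were higher against CON and 2 against MAL (Elovl5 added), and 19 pathway genes were higher against MAL. With length and GC offsets and mean log2 CPM scaling together, 20 pathway genes were higher against CON and 20 against MAL, and 4 of the 10 genes were lower in each, as Fasn was lost. That fit moved the median of all genes to 0.21 and 0.20 and the share of higher calls from 34.4% to 57.7% against CON and from 33.4% to 57.4% against MAL. Acaca reversed there to 0.43 and 0.46, which relative to this shift remain above 0, and Fads1 to 0.049 against MAL. Chosen after seeing the data, mean log2 CPM scaling alone gave 2 higher in each (Elovl5 at 0.65 and 0.61), 17 pathway genes higher against MAL, 0.054 for Fads1, and 0.022 for Acaca against MAL. Offsets alone gave 0 higher against MAL and 4 lower in each (Fasn lost, at -0.48 and -0.41), and reversed Acaca to 0.17 and 0.24. In MAL versus CON, Elovl5 changed sign with DESeq2 size factors (-0.0016), DESeq2 (-0.0020), offsets (-0.028), and 3 libraries left out (-0.064). Leaving out those 3 libraries, which widens the marker gap between groups, gave 1 higher and 6 lower against CON (Scd2 added) and 1 and 5 against MAL. The cause was not tested.

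Leaving out single libraries, the MAL versus CON changes, none of them called, spanned 0 for Scd1 (-0.35 to 0.073), Scd2 (-0.24 to 0.063), Fads2 (-0.20 to 0.23), Elovl1 (-0.012 to 0.13), Elovl5 (-0.088 to 0.14), Elovl6 (-0.41 to 0.056), Elovl7 (-0.46 to 0.045), and Fasn (-0.26 to 0.0016). So did the ratios Scd2 to Scd1 (-0.13 to 0.13), Fads2 to Fads1 (-0.081 to 0.27), and Fasn to Acaca (-0.19 to 0.049). Pathway genes lower against MAL numbered 8 to 15, with 8 without MAL replicate 2. The Scd2 to Scd1 difference against CON was 1.05 to 1.36 (adjusted p 0.0171 to 0.05), and Fasn to Acaca against MAL -0.82 to -0.58, with an adjusted p of 0.05 without MAL replicate 2. No paired analysis was possible because the library numbers in the table match no sample title.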

Other observations

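The ratio of Fasn to Acaca, 2 enzymes that act side by side, was 4.17, 5.24, 5.07, and 4.85 in CON, 4.52, 6.45, 4.46, 3.31, and 4.74 in MAL, and 1.84 to 4.09 in MAL-BG. Every MAL-BG library was below every CON library, and 5 of 7 were below every MAL library. The log2 ratio was lower in MAL-BG by 0.77 than in CON (two-sided exact permutation test, p = 0.0121, adjusted 0.0189) and by 0.70 than in MAL (exact permutation test, p = 0.0126, adjusted 0.0189). Of the 42-base windows of Acaca 31.6% also occur elsewhere, so the lower term of the ratio is uncertain. The ratio was not corrected for length and GC content. With offsets for these the Fasn calls were lost and the Acaca change reversed.

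Markers of neutrophils, which carry CD11b as well, summed to 485 to 1226 CPM in CON, 521 to 1092 in MAL, and 591 to 13571 in MAL-BG. Of 11 tested, 10 were called higher in each MAL-BG comparison (median log2 fold change 4.21 against CON and 3.95 against MAL). Csf3r, which was not called against CON, was at 604 ± 348 CPM in CON and 458 ± 162 in MAL-BG and weighs on the sums. Lymphocyte markers summed to 45.5 to 71.9 CPM in CON, 50.5 to 76.6 in MAL, and 102 to 221 in MAL-BG. The part of these cells in the levels of the 10 genes was not tested. MAL-BG replicate 5, the library with 13571 CPM, had 91.3 CPM of Elovl1 and 39.6 CPM of Fasn, and without it the counts of called genes among the 10 were the same.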
